A study of Helianthus annuus with 6 samples.

Results

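In one of the 6 sunflower petiole libraries, the first of the flat-leaved line, 200 RefSeq genes stood far below their levels in the other libraries of the same line. They were taken from 57126 RefSeq genes in the deposited tables, which hold 70842 loci in all. The genes were selected on these measured values. Their shortfall in that library is therefore a description of how they were picked and carries no test. Before ranking, the FPKM values of the lines had to overlap in range, a gene could not be among the 100 most abundant, and its mean over the 6 libraries had to be at least 2 FPKM. FPKM counts fragments relative to transcript length and library size. Of the RefSeq genes, 14638 met these conditions and were ranked. The ranking value was log2(FPKM + 1) of the smaller of 19G replicates 2 and 3 minus that of 19G replicate 1, and the 200 largest were kept.

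The study sequenced poly(A) RNA from petioles of cultivated sunflower (Helianthus annuus) and compared inbred line 20G with inbred line 19G. Line 20G is leaf-compact, with a small petiole inclination angle, and line 19G is leaf-flat, with a large one. Each line had 3 bulk libraries, and neither plant age, growth conditions nor whether a library pooled plants is stated in the labels. Leaf form and line coincide, and no label ties the replicates of a line to separate plants, so the spread between them may be technical.

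The petiole is the stalk that carries the leaf blade. Its angle to the stem is known to depend on unequal growth of the upper and lower sides, in which auxin, gibberellin, brassinosteroid and ethylene take part, and the angle of many plants shifts with light, shade and time of day. A petiole holds epidermis, cortex, vascular bundles and supporting tissue, and a bulk library mixes their RNA. A gene lower in a bulk library may reflect fewer cells of a type or less RNA per cell, and these cannot be told apart here. The identifiers come without product names in the sources used here, so no role is given to any gene, and the tissue could not be checked against marker genes.

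All 6 libraries had similar totals, between 638235 and 701884 summed FPKM, and 26075 to 27468 loci at 1 FPKM or more. Library 19G replicate 1 stood apart from its line. Across the 28292 loci tested between the lines, its log2 values correlated at r = 0.906 and 0.886 with 19G replicates 2 and 3, while those libraries correlated with each other at 0.972. The loci are not independent replicates. Its 10 most abundant loci took 9.04% of summed FPKM, against 5.21% and 5.67% in 19G replicates 2 and 3, and 7.30% to 9.59% in 20G. The median tested locus was 0.26 lower on the log2(FPKM + 1) scale in 19G replicate 1 than in the mean of 19G replicates 2 and 3. For the 200 genes the median was 2.99 lower.

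The 200 genes together held 3489, 5384 and 5635 FPKM in 20G replicates 1 to 3. In 19G they held 767 FPKM in replicate 1, against 8177 and 10325 FPKM in replicates 2 and 3. As a share of each library this was 0.528%, 0.767% and 0.845% in 20G, and 0.112% in 19G replicate 1, against 1.28% and 1.57% in 19G replicates 2 and 3. The median gene of the 200 stood at 7.76, 9.63 and 12.3 FPKM in 20G, and at 1.75 FPKM in 19G replicate 1, against 23.6 and 28.0 FPKM in 19G replicates 2 and 3. For all 14638 ranked genes the medians lay closer together, between 9.64 and 10.3 FPKM in 20G. Their median was 8.58 FPKM in 19G replicate 1, the lowest of the 6 libraries, against 10.7 and 10.95 FPKM in 19G replicates 2 and 3. In 19G replicate 1, 14 of the 200 genes were listed at 0 and 75 were under 1 FPKM, while none was under 1 FPKM in 19G replicates 2 and 3. In 20G, 16 to 23 genes of the 200 were under 1 FPKM in a library.

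**Figure D1:**
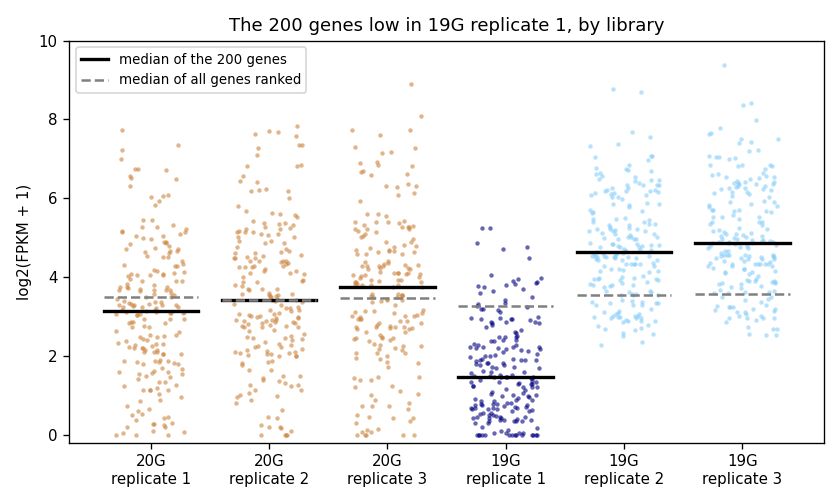
Each point is one of the 200 genes in one library, on a log2(FPKM + 1) axis. The solid bar is the median of the 200 genes and the dashed bar the median of all 14638 ranked genes. The 200 genes sit lowest in 19G replicate 1 (median 1.75 FPKM), highest in 19G replicates 2 and 3 (23.6 and 28.0 FPKM), and in between in the 3 libraries of 20G.

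The ranking value ran from 6.17 to 2.26 over the 200 genes, with a median of 2.70, against a median of 0.21 over all ranked genes. It was at least 3 in 63 genes and at least 4 in 19. At the lower end, the last gene but one was LOC110918117, at 16.0, 8.28 and 23.0 FPKM in 20G, and 9.72 FPKM in 19G replicate 1, against 71.9 and 50.3 FPKM in 19G replicates 2 and 3. Rank 200 was LOC110927035, at 2.58, 3.71 and 6.66 FPKM in 20G, and 0.574 FPKM in 19G replicate 1, against 6.52 and 6.72 FPKM in 19G replicates 2 and 3. The first genes left out were LOC110885227 and LOC110915468, with ranking values of 2.26 as well. LOC110885227 stood at 8.19, 16.8 and 13.0 FPKM in 20G, and at 4.01 FPKM in 19G replicate 1, against 22.9 and 37.3 FPKM in 19G replicates 2 and 3. The list therefore ends inside a continuous run of values, with no gap at its end.

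Each condition set before the ranking can be counted against this shortfall. Of 20528 RefSeq genes with a mean of at least 2 FPKM, 217 reached the ranking value of rank 200. Among the 17 not kept, 15 had lines that did not overlap and 2 were among the 100 most abundant. Among the 36598 RefSeq genes with a mean under 2 FPKM, 2 reached it. Loci that the authors assembled as new, without RefSeq identifiers, held the pattern at a similar rate: 20 of 1761 that met the overlap and mean conditions reached that value (1.14%), against 1.37% of the ranked RefSeq genes.

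The same ranking was applied to each library in turn, set against the smaller of the other 2 of its line. A ranking value of at least 2 was reached by 288 genes in 19G replicate 1. In the other libraries of 19G it was reached by 2 genes in replicate 2 and 20 in replicate 3, and in 20G by 5, 29 and 2 genes in replicates 1 to 3. The value of rank 200 was 2.26 in 19G replicate 1 and between 0.58 and 1.14 in the other 5 libraries. A single library has no replicate, so this difference has no test.

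**Figure D2:**
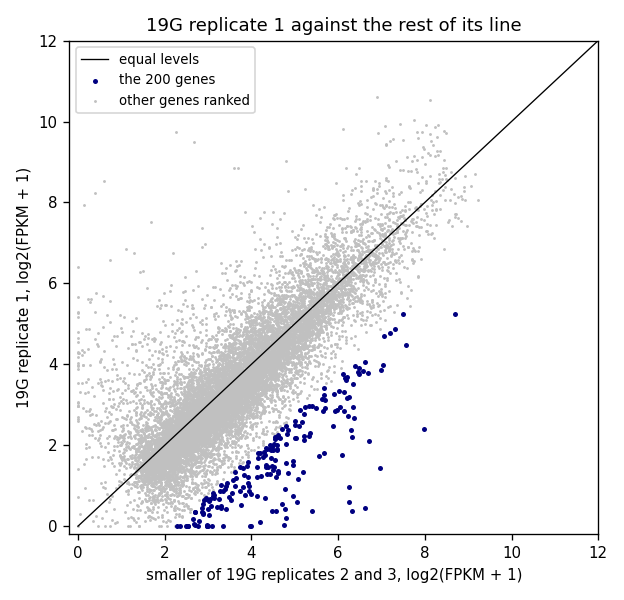
Each point is one of the 14638 ranked genes, with the smaller value of 19G replicates 2 and 3 on the x axis and 19G replicate 1 on the y axis, both as log2(FPKM + 1). The 200 genes form the lower edge of the cloud, at least 2.26 below the line of equal levels, and the cloud joins them without a gap.

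The 10 genes with the largest shortfall fell into different kinds by their level in 20G. The largest was LOC110903315. It stood at 34.7, 24.1 and 114.5 FPKM in 20G, and at 0.371 FPKM in 19G replicate 1, against 98.0 and 217 FPKM in 19G replicates 2 and 3, a ranking value of 6.17. It was present in all other libraries of both lines but nearly absent from 19G replicate 1, and 20G replicate 3 lay between the 2 higher libraries of 19G. LOC110910146, rank 5, stood at 213, 474 and 478 FPKM in 20G, and at 1.69 FPKM in 19G replicate 1, against 125 and 341 FPKM in 19G replicates 2 and 3. It was thus more abundant in 2 libraries of 20G than in any of 19G. LOC110895806, rank 9, stood at 66.9, 72.7 and 195 FPKM in 20G, and at 3.27 FPKM in 19G replicate 1, against 105 and 113 FPKM in 19G replicates 2 and 3. LOC110917418, rank 10, stood at 18.6, 40.7 and 40.8 FPKM in 20G, and at 0.152 FPKM in 19G replicate 1, against 26.7 and 50.7 FPKM in 19G replicates 2 and 3. In these 4 genes 19G replicate 1 was the lowest of the 6 libraries, and the other 5 were all at 18.6 FPKM or more.

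In the other 6 of the 10, the 20G mean on the log2(FPKM + 1) scale was near 19G replicate 1, and 19G replicates 2 and 3 stood apart. A single library of 20G could lie higher, as 20G replicate 2 did for LOC110897319. LOC110917103, rank 2, stood at 0.410, 0.357 and 0.0534 FPKM in 20G, and at 0.306 FPKM in 19G replicate 1, against 105 and 78.4 FPKM in 19G replicates 2 and 3. LOC110917082, rank 3, stood at 0.236, 0.738 and 0.107 FPKM in 20G, and at 0.520 FPKM in 19G replicate 1, against 85.2 and 75.0 FPKM in 19G replicates 2 and 3. These genes were at trace level in 4 libraries and strong in 2. LOC110917534, rank 4, had a higher base, at 3.28, 6.48 and 1.61 FPKM in 20G, and 4.29 FPKM in 19G replicate 1, against 432 and 252 FPKM in 19G replicates 2 and 3. LOC110897319, rank 6, stood at 1.80, 7.46 and 0.661 FPKM in 20G, and at 0.957 FPKM in 19G replicate 1, against 109 and 74.9 FPKM in 19G replicates 2 and 3. In both, at least one library of 20G stood below 19G replicate 1, while the overlap condition required at least one at or above it. LOC110894736, rank 7, stood at 0.569, 1.57 and 0.0760 FPKM in 20G, and at 0.290 FPKM in 19G replicate 1, against 40.9 and 41.2 FPKM in 19G replicates 2 and 3. LOC110865032, rank 8, was listed at 0.142, 0.191 and 0 FPKM in 20G, and at 0.0286 FPKM in 19G replicate 1, against 26.0 and 27.7 FPKM in 19G replicates 2 and 3. In each of these 6 genes at least one library of 20G was below 19G replicate 1, so the working description of a gene lowered in that library alone does not hold for them.

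**Figure D3:**
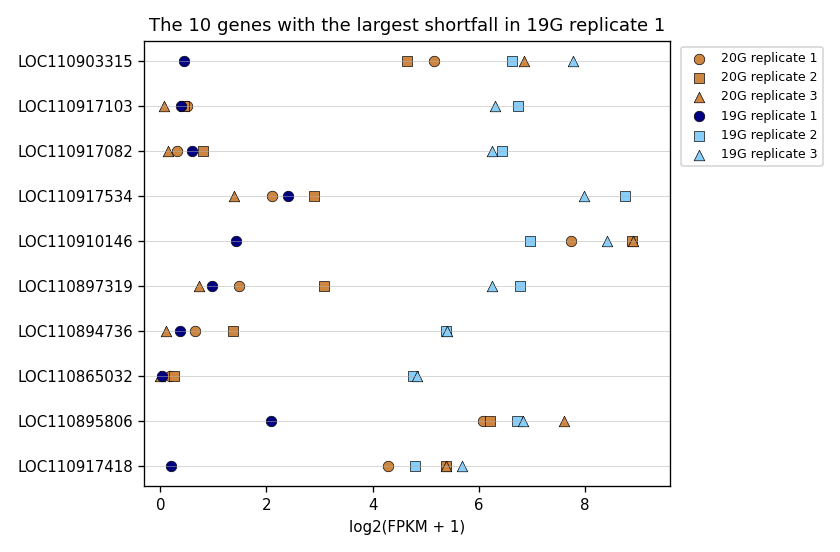
The 10 genes with the largest ranking value run down the page, and each marker is one library on a log2(FPKM + 1) axis. In 4 genes the navy marker of 19G replicate 1 stands alone on the left. In the other 6 the markers of 20G lie on the left as well, and the 2 pale blue markers of 19G replicates 2 and 3 stand alone on the right. The 20G markers do not all meet the navy one: for LOC110897319 that of 20G replicate 2 lies well to its right.

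Over all 200 genes, 19G replicate 1 was the lowest of the 6 libraries in 161 (80.5%), and in 39 at least one library of 20G was at or below it. The ranking favoured low values in 19G replicate 1, and the overlap condition barred genes with all libraries of 20G below it. These counts, and the positions that follow, are therefore descriptions of the list. To place line 20G, its mean on the log2(FPKM + 1) scale was expressed as a position between the levels of 19G, with 0 at 19G replicate 1 and 1 at the mean of 19G replicates 2 and 3. The median position was 0.62. In 80 genes 20G lay above 0.7, near 19G replicates 2 and 3; in 74 it lay between 0.3 and 0.7; and in 46 it lay below 0.3, near 19G replicate 1. These limits were chosen after the values were seen, and the positions form a broad distribution with no empty stretch between 0 and 1.

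The median gene of the 80 stood at 16.8, 24.6 and 24.5 FPKM in 20G, and at 1.72 FPKM in 19G replicate 1, against 25.7 and 32.3 FPKM in 19G replicates 2 and 3. In all 80, 19G replicate 1 was the lowest library. The median gene of the 74 stood at 7.76, 7.58 and 10.4 FPKM in 20G, and at 1.92 FPKM in 19G replicate 1, against 24.7 and 27.0 FPKM in 19G replicates 2 and 3. The median gene of the 46 stood at 1.21, 2.20 and 1.38 FPKM in 20G, and at 1.05 FPKM in 19G replicate 1, against 22.2 and 26.1 FPKM in 19G replicates 2 and 3. In 8 of the 46, 19G replicate 1 was the lowest library. The median ranking values of the 3 groups, in the same order, were 2.56, 2.78 and 2.78. Every member had to reach 2.26, which holds such medians close together, so no likeness of the groups is read from them.

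**Figure D4:**
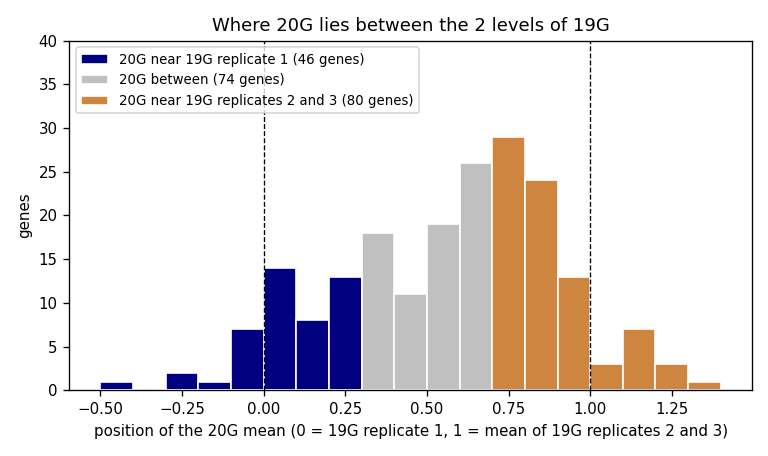
The histogram counts the 200 genes by the position of the 20G mean, in bins of 0.1, with dashed lines at 19G replicate 1 (0) and at the mean of 19G replicates 2 and 3 (1). Most genes lie nearer to the right-hand line, 80 of them above 0.7, while 46 lie below 0.3.

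The 5 genes with 20G highest relative to 19G replicates 2 and 3 were LOC110908588, LOC110924037, LOC110915498, LOC110910146 and LOC110940260, with differences of 0.96, 0.89, 0.86, 0.82 and 0.80 on the log2(FPKM + 1) scale. LOC110908588 stood at 42.4, 46.5 and 155 FPKM in 20G, and at 0.335 FPKM in 19G replicate 1, against 44.3 and 26.2 FPKM in 19G replicates 2 and 3. LOC110924037 stood at 104, 197 and 213 FPKM in 20G, and at 12.0 FPKM in 19G replicate 1, against 72.5 and 106 FPKM in 19G replicates 2 and 3. LOC110940260 stood at 23.5, 74.9 and 77.7 FPKM in 20G, and at 1.45 FPKM in 19G replicate 1, against 20.6 and 41.2 FPKM in 19G replicates 2 and 3. In each of these 3 genes the ranges of 20G and of 19G replicates 2 and 3 overlapped. LOC110915498 was less abundant, at 11.0, 26.4 and 19.6 FPKM in 20G, and at 0.232 FPKM in 19G replicate 1, against 6.37 and 13.7 FPKM in 19G replicates 2 and 3. In 14 of the 200 genes the 20G mean exceeded that of 19G replicates 2 and 3. A gene with all 3 libraries of 20G above both could not enter the list, because its lines would not overlap.

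At the opposite end, the 5 genes with 20G lowest relative to 19G replicates 2 and 3 were LOC110917534, LOC110917103, LOC110917082, LOC110899613 and LOC110897319, with differences of -6.24, -6.19, -5.92, -5.14 and -4.74. LOC110899613 had values of 0, 0 and 0.263 FPKM in 20G, and of 0 in 19G replicate 1, against 14.9 and 89.8 FPKM in 19G replicates 2 and 3. The other 4 are among the 10 genes with the largest shortfall and are described above. Over the 200 genes the median of this difference was -1.18, against -0.08 over all ranked genes, and 186 of 200 (93.0%) were below 0, against 59.4% of the ranked genes. All 3 libraries of 20G were below 19G replicates 2 and 3 in 135 of the 200 genes (67.5%), beside 31.2% of all tested loci and 22.5% of the ranked genes. The choice of members favoured high values in 19G replicates 2 and 3, so these shares are descriptions of the list.

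The most abundant of the 200 genes were mostly near their 19G level in 20G. The mean over the 6 libraries ranged from 2.29 to 275 FPKM, with a median of 15.3 FPKM, against 10.3 FPKM over all ranked genes. LOC110886457 was the most abundant, at 148, 229 and 157 FPKM in 20G, and 36.9 FPKM in 19G replicate 1, against 414 and 667 FPKM in 19G replicates 2 and 3. It was the one of the 5 most abundant whose 20G values all lay below both 19G replicates 2 and 3. LOC110925968 stood at 106, 163 and 212 FPKM in 20G, and at 21.4 FPKM in 19G replicate 1, against 188 and 328 FPKM in 19G replicates 2 and 3. LOC110873395 stood at 163, 206 and 273 FPKM in 20G, and at 26.2 FPKM in 19G replicate 1, against 166 and 146 FPKM in 19G replicates 2 and 3. LOC110929535 stood at 107, 204 and 140 FPKM in 20G, and at 36.9 FPKM in 19G replicate 1, against 203 and 181 FPKM in 19G replicates 2 and 3. The fifth of them is LOC110910146. Even these genes kept measurable signal in 19G replicate 1, and in all 5 that library was the lowest of the 6.

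Within line 20G, replicate 1 was often the lowest library for these genes. It was the lowest of the 3 in 117 of the 200 genes (58.5%), against 27.8% of all ranked genes, and replicate 3 was the highest in 98 (49.0%), against 28.8%. Replicate 2 was the lowest in 51 of the 200 (25.5%), against 45.9% of the ranked genes. The median of the 200 genes was 0.42 lower in 20G replicate 1 than in the mean of the other 2 libraries of 20G on the log2(FPKM + 1) scale, while over all ranked genes that library was 0.06 higher. The share was highest among the 80 genes with 20G near 19G replicates 2 and 3, of which 61 (76.3%) had 20G replicate 1 lowest. It was 37 of 74 (50%) in the group between, and 19 of 46 (41.3%) in the group near 19G replicate 1. The genes also spread more within 20G: the 3 libraries ranged over at least 1 on that scale in 84 of the 200 (42.0%), against 12.4% of the ranked genes. The overlap condition used the values of 20G, 1 library cannot be tested against 2 others, and the labels do not say whether libraries numbered 1 share a plant, a day or a run. These shares are therefore given as descriptions.

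The mirror of the rule, the 200 genes highest in 19G replicate 1 relative to the larger of 19G replicates 2 and 3, gave the reverse order in 20G. Replicate 1 of 20G was the highest of its line in 117 of those genes (58.5%), against 38.9% of all ranked genes. It was the lowest in 22 (11.0%), against 27.8%, and 20G replicate 3 was the lowest in 116 (58.0%), against 26.3%. The median shift was 2.71 in the mirror list, against a median ranking value of 2.70 among the genes low in that library. Each list was cut at its rank 200, at 2.07 in the mirror list and 2.26 in the low list. Such cuts hold the medians close together, so no likeness is read from them. In 171 of the mirror genes 19G replicate 1 was the highest of the 6 libraries, against 161 of the 200 low genes in which it was the lowest. The mirror genes were at a median of 31.5 FPKM in 19G replicate 1, against 2.91 and 1.81 FPKM in 19G replicates 2 and 3, and together held 20120 FPKM there. The difference between the lists was not tested, since both were picked on the same library.

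**Figure D5:**
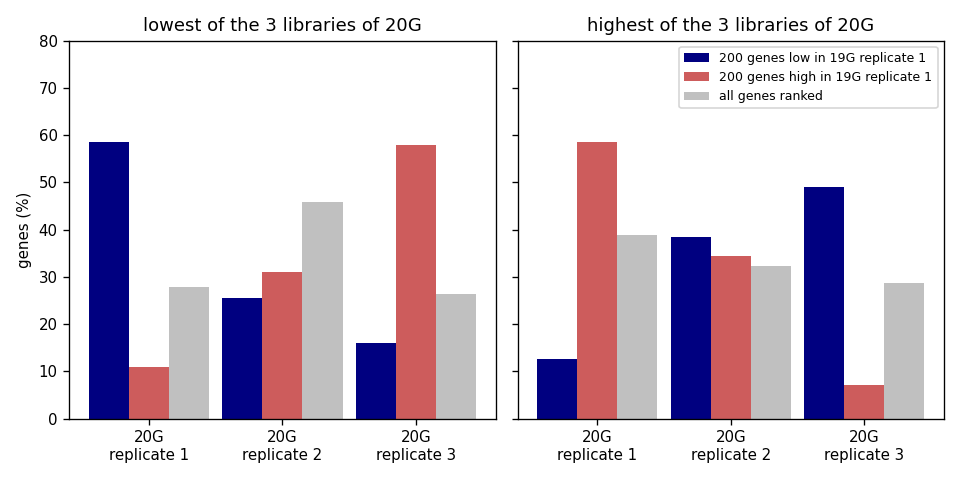
Bars give the percentage of genes for which each library of 20G was the lowest (left) or the highest (right) of its line, for the 200 genes low in 19G replicate 1, the 200 mirror genes high in it and all 14638 ranked genes. Replicate 1 of 20G is the lowest in 58.5% of the low genes and the highest in 58.5% of the mirror genes, against 27.8% and 38.9% of all ranked genes.

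Whether the lines differed was asked with limma over all tested loci, as 20G minus 19G on the log2(FPKM + 1) scale, with a call at a Benjamini-Hochberg adjusted p under 0.05 and a difference of at least 1. Of 28292 loci, 4849 (17.1%) were called. A locus had to reach 1 FPKM in 3 or more libraries to be tested, and 190 of the 200 genes did. The 10 others reached it in fewer libraries. All 10 belonged to the 46 genes with 20G near 19G replicate 1, of which 36 were tested, and they include ranks 2, 3 and 8. The counts and medians of the 190 leave them out. None of the 190 was called (0 of 190), and 11 had an unadjusted p under 0.05, against 29.8% of all tested loci. The rule asked for lines that overlap and favoured a wide spread within 19G, which together bear on every such call, so nothing is read from this count. The median difference of the 190 was -0.09, against 0.02 over all tested loci.

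Leaving out 19G replicate 1 sets 20G against the libraries whose high values placed these genes on the list, and the overlap condition bars genes with 20G above both. Calls lower in 20G were therefore favoured and calls higher in 20G disfavoured by the choice of genes, and the counts are a description from which nothing is read. Without that library, 78 of the 190 genes (41.1%) were called lower in 20G and 0 higher by limma, beside 10.8% of all tested loci called lower and 9.34% called higher, and the median difference of the 190 was -1.14. Sample weights, which count a library that departs from its line for less, gave 65 genes called lower (34.2%), beside 11.2% of all tested loci. The weight of each library was not recorded, and the same choice of genes bears on this count. With the replicate number as a block, 9 of the 190 were called, 6 lower and 3 higher in 20G, beside 18.1% of all tested loci, 9.09% lower and 9.03% higher. Differences of single genes are given without p-values for the same reason. For LOC110917534 the difference, 20G minus 19G, was -4.25 (SE 1.56) over all 6 libraries and -6.24 (SE 0.48) without 19G replicate 1. For LOC110894736 it was -3.01 (SE 1.31) over all libraries and -4.69 (SE 0.37) without that library. In both genes the values of 20G lay on either side of 19G replicate 1, the upper side as the overlap condition required. The lines stood further apart without that library. For the most abundant gene, LOC110886457, the difference was -0.32 (SE 0.99) over all libraries and -1.59 (SE 0.30) without it. For LOC110910146 it was 2.91 (SE 1.64) over all libraries and 0.82 (SE 0.55) without it. LOC110903315, the gene with the largest shortfall, changed sign, at 0.60 (SE 1.79) over all libraries and -1.65 (SE 0.71) without 19G replicate 1.

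Some of the 200 genes were neighbours. In the gene order of a RefSeq table for sunflower, which placed all but 1 of them among 56957 genes, 6 pairs were adjacent and 12 pairs lay within 5 genes of each other, involving 20 of the 200. In the mirror list 11 pairs were adjacent. The number of pairs among equally many genes placed without regard to expression was not worked out. These counts are therefore not read as few or many. LOC110917103 and LOC110917082, ranks 2 and 3, are neighbours, and both were under 1 FPKM in the same 4 libraries and above 75 FPKM in 19G replicates 2 and 3. LOC110894736, rank 7, lies beside LOC110896629, rank 128, which stood at 0.811, 0.963 and 1.73 FPKM in 20G, and at 0.262 FPKM in 19G replicate 1, against 6.38 and 6.57 FPKM in 19G replicates 2 and 3. LOC110899613 lies beside LOC110899614, which had values of 0.195, 1.03 and 1.72 FPKM in 20G, and of 0 in 19G replicate 1, against 3.85 and 55.6 FPKM in 19G replicates 2 and 3. Both genes of this pair were far higher in 19G replicate 3 than in 19G replicate 2.

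The longest run was LOC110930789, LOC110930790 and LOC110930791, and it had a pattern of its own in 20G. LOC110930789 stood at 1.21, 12.0 and 0.734 FPKM in 20G, and at 1.42 FPKM in 19G replicate 1, against 17.2 and 13.2 FPKM in 19G replicates 2 and 3. LOC110930790 stood at 2.01, 12.0 and 1.05 FPKM in 20G, and at 2.09 FPKM in 19G replicate 1, against 22.2 and 28.8 FPKM in 19G replicates 2 and 3. LOC110930791 stood at 1.39, 6.97 and 0.668 FPKM in 20G, and at 1.11 FPKM in 19G replicate 1, against 14.3 and 19.0 FPKM in 19G replicates 2 and 3. In all 3 genes 20G replicate 2 was well above the other libraries of 20G, and 20G replicate 3 was the lowest of the 6 libraries. The last adjacent pair was LOC118492440 and LOC118492441. LOC118492440 stood at 20.3, 48.1 and 38.4 FPKM in 20G, and at 4.58 FPKM in 19G replicate 1, against 58.4 and 68.9 FPKM in 19G replicates 2 and 3. LOC118492441 had values of 2.72, 3.11 and 3.40 FPKM in 20G, and of 0 in 19G replicate 1, against 6.81 and 9.38 FPKM in 19G replicates 2 and 3. Adjacent genes can be copies that share reads or overlap in sequence, which was not examined, so the separate values of neighbours are uncertain.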

How the data were processed

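RNA sequencing of petioles gave 6 files, 1 per library, with 1 value for each of 70842 loci. The deposited values are FPKM, as the labels name the authors' columns; the sources used here do not state the aligner, assembler, genome build or filters. Groups and replicate numbers came from the sample titles. Depth is unknown, because FPKM carries no counts. Whole reads would leave a regular step among low values. For loci below 0.1 FPKM in each of a pair of libraries, the fullest 0.01-wide bin of the log2 ratio held 0.919% to 2.09% of loci, and no reads were recovered from this. No pair of libraries had an equal value among 33165 to 36882 loci above 0 in both, so all 6 were kept as separate samples.

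The 200 genes and every list here were chosen with earlier results of these data known. The test between the lines was limma 3.58.1 (R 4.3.3) on log2(FPKM + 1), with a mean-variance trend, 2-sided, over loci with at least 1 FPKM in 3 or more libraries. The fit and the ranking were tested on simulated data. Other steps used Python 3.11.15, NumPy 2.4.6 and pandas 2.3.3. All 57126 RefSeq identifiers matched protein-coding genes of a RefSeq table of assembly HanXRQr2.0-SUNRISE; since no build is named in the files, it served only for gene order. Genes named in the text are the 10 with the largest ranking value, the 5 most abundant, the 5 highest and 5 lowest in 20G relative to 19G replicates 2 and 3, ranks 199 to 202 and adjacent members. Parts of the rule on protein families, protein patterns and promoter motifs were not applied, as no sequence table was used here. Replicate numbers were not taken as pairs. Alternatives were other pseudocounts, filters, scalings and weights, the replicate block, and each library left out.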

Additional observations from a re-analysis of the deposited data

How the results depend on the processing

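Of 47 alternative values, 42 stayed within 1.5 times the reported count or within 1 SD between the 20G libraries for the median difference. Among the 42 are counts of 0 called among the 190 tested genes that stayed at 0, which the choice of genes favoured. A list that kept 139 of the 200 genes also falls within these limits. The 42 are therefore not read as a measure of stability. The 5 others concern the line comparison. Testing only loci with a mean of at least 5 FPKM left 1860 loci called in place of 4849, which tests fewer loci by construction. The 0 called among the 190 tested genes became 65 with sample weights and 9 with the replicate block, and ranged from 0 to 78 with each library left out: 78 without 19G replicate 1, 1 without 20G replicate 1 and 0 without any other. The genes were picked on the departure of 19G replicate 1, so a change of these calls with that library was built into the list. Beside these counts, 5690 of all 28292 tested loci were called without 19G replicate 1, and 4454 without 20G replicate 1. Without each of the other libraries 4345 to 4527 were called. With sample weights 5964 loci were called in all, and with the replicate block 5126. Same-numbered libraries of the lines deviated together at r = 0.245, -0.013 and 0.127 for numbers 1 to 3, so the numbers were not used as pairs; for the libraries numbered 1 this was the highest of the 9 values between lines. Of the 200 genes, 143 were kept with a pseudocount of 0.1 in the ranking, 139 with 5, 189 after median-of-ratios scaling, 166 with the mean of 19G replicates 2 and 3 and 176 at a mean of at least 5 FPKM. Median-of-ratios scaling removed the shift of the median tested locus and left a median ranking value of 2.49 in place of 2.70; 160 of the 200 genes then had 19G replicate 1 lowest. The fits on protein and promoter features were not run, because no sequences were used here. With FPKM alone, the limit that depth sets on values near 0 cannot be given.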
